A study of Mus musculus with 6 samples.

Results

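The genes described here are 6 homeobox genes known for placing and maintaining the boundary between midbrain and hindbrain: En1, En2, Gbx2, Otx1, Otx2 and Lmx1b. They were chosen by gene symbol, as the probe sets whose only gene symbol in the platform annotation was one of these names. All 6 were measured, by 7 of the 45101 probe sets on the array and as 6 of the 18194 genes tested. The tissue was branchial arch 1, from which the jaws form, dissected from mouse embryos of embryonic day 11.5. The 3 embryos labelled control were Ezh2lox/lox, and the 3 labelled mutant were Wnt1Cre Ezh2lox/lox, so that both groups carried the lox alleles and only the second a Cre meant to remove Ezh2 from the neural crest lineage. Ezh2 is the methyltransferase of Polycomb repressive complex 2, which keeps many developmental genes silent. The Cre acts in crest-derived cells, whereas arch epithelium, muscle precursors and vessels come from other lineages, and the dissected arch was not sorted. The labels give 1 arch per embryo and call the 3 arrays of a group biological replicates. The comparison asks which of these genes depended on the genotype in the arch.

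At the neural tube, Otx genes are expressed in front of the boundary and Gbx2 behind it, and their mutual repression sets its position. Wnt1, Fgf8, the Pax2/5/8 factors and the engrailed genes then form a network that maintains the boundary as a signalling centre, the isthmic organizer, and Lmx1b acts in that network upstream of Fgf8 and Wnt1. Outside the brain the same genes have other sites: En2 has been described in jaw muscle precursors of the first arch, Gbx2 in arch mesenchyme and pharyngeal tissue, and Lmx1b in dorsal limb mesenchyme and periocular mesenchyme. The Wnt1-Cre driver is itself active in the dorsal neural tube from which the cranial crest leaves.

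Values are log2 signals as the authors deposited them, and differences are labelled mutant minus labelled control. On each array the 25th percentile of all probe sets was 4.33 and the median 5.81, and signals near or under the 25th percentile hold mostly background. Ezh2 itself read 11.63 ± 0.15 (SD, n = 3) in the control-labelled and 11.66 ± 0.01 (n = 3) in the mutant-labelled arches (limma, Benjamini-Hochberg adjusted p = 0.906), and since the place of its only probe set relative to the deleted exons is not known here, it does not check the labels. Xist read 5.62 against 13.03 and the Y-linked Kdm5d, Eif2s3y and Uty read 9.18, 9.09 and 8.18 against 2.95, 3.35 and 3.23, so that the control-labelled arches had the male and the mutant-labelled arches the female pattern. Sex and genotype label cannot be told apart in any comparison here. Nothing measured here checks which arrays carried the deletion. En2 and several Hox genes described below, known as genes that Polycomb repression silences, were high in the control-labelled arches. Other developmental regulators, among them Gbx2, Dlx5 and Msx2, were higher in the mutant-labelled arches, by 2.73, 1.18 and 1.10. The labels may be exchanged between the groups, which was not tested, and every direction given here would then be reversed. Over all genes, 1007 had an adjusted p under 0.05 (limma, Benjamini-Hochberg), 783 lower and 224 higher in the mutant-labelled arches. These counts were 462 and 89 without control-labelled array 2, 409 and 72 without mutant-labelled array 2, 372 and 63 without mutant-labelled array 3, and the count of higher genes was 126 without mutant-labelled array 1.

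En2 was lower and Gbx2 higher in every mutant-labelled arch than in every control-labelled arch. Otx2 was lower as well, while Otx1 and En1 were lower by less than 1 log2 unit and Lmx1b overlapped between the groups. The groups did not overlap for 5 of the 6 genes, 4 lower and 1 higher in the mutant-labelled arches. Over all 18194 genes the groups did not overlap for 24.9%, with 11.9% lower and 13.0% higher. The median difference over the 6 genes was -0.58, and over all genes it was 0.02. Because the genes were proposed with results of this contrast in view, their differences are given as a description with a standard error and without a p-value. In these bulk samples, fewer cells that express a gene and less RNA per cell cannot be told apart.

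**Figure D1:**
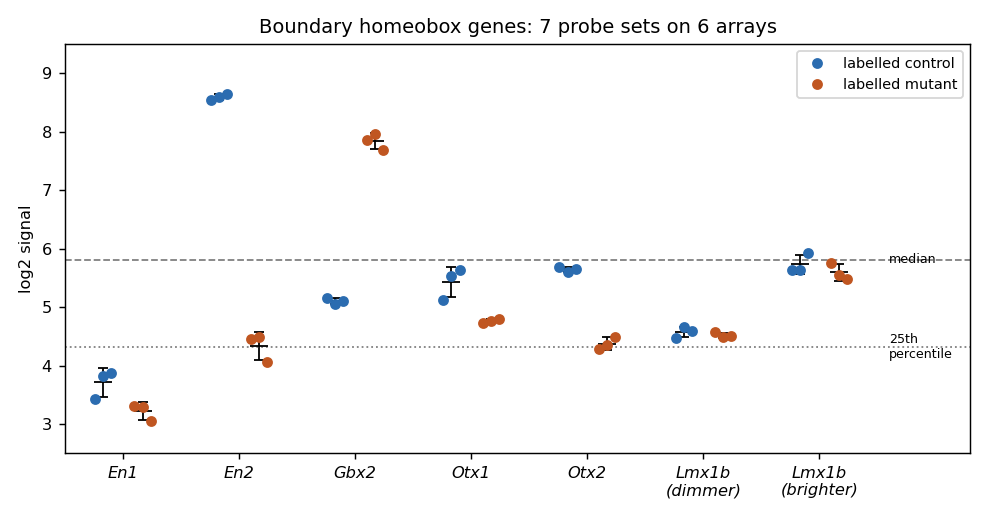
Log2 signal of the 7 probe sets of the boundary homeobox genes on each of 6 arrays, with the mean and SD of 3 arrays per group (black bars) and the array's median (dashed) and 25th percentile (dotted). En2 lies near 8.6 in the control-labelled arches and near the 25th percentile in the mutant-labelled arches, Gbx2 goes from 5.11 to 7.84, and both Lmx1b probe sets overlap between the groups.

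Otx2, the factor that gives the forebrain and midbrain their identity and holds Gbx2 back, read 5.69, 5.60 and 5.65 in control-labelled arches 1 to 3 and 4.29, 4.35 and 4.49 in mutant-labelled arches 1 to 3. All control-labelled values lay just under the array's median, and the mutant-labelled values lay at its 25th percentile, with a gap of 1.11 between the groups. The means were 5.65 ± 0.05 and 4.38 ± 0.11 (SD, n = 3 each), a difference of -1.27 ± 0.08 (SE). This is 2.41-fold lower, and since the mutant-labelled signal lies at the low end of the scale, the size depends on that end.

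Otx1, which acts with Otx2 in the forebrain and midbrain, read 5.13, 5.53 and 5.63 in the control-labelled arches and 4.73, 4.76 and 4.80 in the mutant-labelled arches. The groups were separated by 0.33, less than the spread of 0.50 among the control-labelled arches, of which array 1 was the lowest. The difference was -0.67 ± 0.13 (SE), and it was -0.82 without control-labelled array 1. Otx1 was thus 1.59-fold lower in the mutant-labelled arches, in the same direction as Otx2, and each gene rests on 1 probe set.

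Gbx2, the factor on the hindbrain side of the boundary, read 5.15, 5.05 and 5.11 in the control-labelled arches and 7.86, 7.96 and 7.69 in the mutant-labelled arches. The control-labelled values lay at percentiles 38.6 to 40.3 of the array's probe sets and the mutant-labelled values at percentiles 70.6 to 73.1. The means were 5.11 ± 0.05 and 7.84 ± 0.13 (SD, n = 3 each), and the difference was 2.73 ± 0.09 (SE), or 6.65-fold. By size this was the 3rd largest positive difference of all 18194 genes. Of the 6 boundary genes it was the only one higher in the mutant-labelled arches.

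Promoter windows in the RefSeq table (build GRCm38.p6) matched 4 of the 6 genes: En1, Gbx2, Otx2 and Lmx1b, with 4 windows for Otx2. Those of Gbx2 and Otx2 are shown because these 2 genes moved in opposite directions and stand for both sides of the boundary. Each sequence is the 250 bases before a start site on the gene's strand, 5′ to 3′, with every CG dinucleotide in capitals, the sequence that marks CpG islands. The window of Gbx2 is chr1:89931177-89931426 (minus strand), and those of Otx2 are the window with the most CG dinucleotides, chr14:48665110-48665359, and the one with the fewest, chr14:48667645-48667894 (both minus strand).
Gbx2: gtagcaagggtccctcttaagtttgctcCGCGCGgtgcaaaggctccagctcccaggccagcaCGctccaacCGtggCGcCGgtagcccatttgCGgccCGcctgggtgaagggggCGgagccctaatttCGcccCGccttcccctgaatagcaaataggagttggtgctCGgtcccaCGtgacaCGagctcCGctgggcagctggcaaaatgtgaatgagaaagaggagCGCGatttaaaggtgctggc
Otx2, most CG: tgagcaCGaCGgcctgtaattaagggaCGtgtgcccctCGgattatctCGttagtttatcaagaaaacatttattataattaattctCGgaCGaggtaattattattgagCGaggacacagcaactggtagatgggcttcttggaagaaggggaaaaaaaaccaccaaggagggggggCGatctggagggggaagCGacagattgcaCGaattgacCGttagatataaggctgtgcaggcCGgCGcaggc
Otx2, fewest CG: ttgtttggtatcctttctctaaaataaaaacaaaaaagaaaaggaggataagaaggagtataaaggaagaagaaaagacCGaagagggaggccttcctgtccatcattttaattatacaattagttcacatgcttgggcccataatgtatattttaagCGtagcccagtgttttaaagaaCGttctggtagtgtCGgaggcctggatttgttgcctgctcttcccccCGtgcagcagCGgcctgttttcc
The Gbx2 window holds 18 CG dinucleotides with an observed to expected ratio of 0.760. Its counterparts at Otx2 hold 14 and 6, with ratios of 1.033 and 0.550, and the other 2 Otx2 windows hold 8 and 9. The windows of En1 and Lmx1b hold 19 each, with ratios of 0.977 and 0.738. Over 32841 promoter windows of the same length the median was 6 CG dinucleotides and a ratio of 0.374. Of the 7 windows of these genes 4 are of Otx2, 2 of which share bases, and all 7 lay above the median ratio, at percentiles 61.4 to 95.7. GC content set them apart less, from 42.0% to 65.2% against a median of 52.4%. The homeodomain core motif TAATTA, searched on both strands, occurred 3 times in the CG-rich Otx2 window and 1 time in the one with the fewest, and in no window of En1, Gbx2 or Lmx1b, whereas 4.8% of all windows held it. The Otx-type site TAATCC, searched likewise, occurred 1 time in the CG-rich Otx2 window and in none of the other 6, against 6.3% of all windows. These matches describe letters in a window and no binding was measured.

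En2, the engrailed gene that patterns the midbrain tectum and the cerebellum, read 8.54, 8.60 and 8.64 in the control-labelled arches and 4.46, 4.50 and 4.06 in the mutant-labelled arches. The control-labelled values lay at percentiles 78.3 to 79.2 of the array's probe sets, and the mutant-labelled values at percentiles 19.4 to 28.4, at the background end of the scale. The means were 8.59 ± 0.05 and 4.34 ± 0.25 (SD, n = 3 each), with a gap of 4.04 between the nearest arrays. The difference was -4.25 ± 0.12 (SE), or 19.1-fold lower, the 12th largest negative difference of all genes. As the mutant-labelled signal may be background, the fold may be understated. It was -4.33 to -4.11 when each array was left out in turn.

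En1, the other engrailed gene, read 3.44, 3.83 and 3.87 in the control-labelled arches and 3.32, 3.30 and 3.05 in the mutant-labelled arches. All 6 values lay under the array's 25th percentile, at percentiles 1.01 to 15.5 of the array. The groups did not overlap, but only by 0.12, with a difference of -0.49 ± 0.13 (SE). With signals floored at each array's 20th percentile, which lies above all 6 values, the difference was 0.0007. En1 can stand in for En2 and the reverse in the midbrain, and in these arches the difference of En2 was not accompanied by an En1 signal above the low end of the scale.

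Lmx1b, the LIM homeobox gene of the isthmus, of dopaminergic and serotonergic neurons and of the dorsal limb, was the only gene with 2 probe sets. The brighter read 5.64, 5.63 and 5.92 in the control-labelled and 5.76, 5.54 and 5.48 in the mutant-labelled arches. The groups overlapped, with a difference of -0.14 ± 0.11 (SE). The dimmer read 4.48, 4.65 and 4.59 against 4.57, 4.49 and 4.51, also overlapping, with a difference of -0.05 ± 0.08 (SE). Both probe sets lay between the 25th percentile and about the median, and neither separated the groups at 3 arrays each.

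Most other genes of the isthmic network did not pass the test. This list and those below were chosen with earlier results of these data known, so that their counts are a description. Of 21 genes in that list 20 were measured, and 1 rose, 2 fell and 17 did not pass with limma after Benjamini-Hochberg adjustment. Over all genes 5.53% passed, 1.23% higher and 4.30% lower. The median difference was 0.06, against 0.02 over all genes. With limma's unadjusted p under 0.05 there were 4 lower and 4 higher genes in the list, against 10.2% and 8.54% over all genes. The groups did not overlap for 45% of the list, against 24.9% over all genes. Spry1, a feedback inhibitor of FGF signalling, rose by 0.50 from 8.29 ± 0.12 to 8.79 ± 0.16 (SD, n = 3 each; limma, Benjamini-Hochberg adjusted p = 0.0266). Tle4, a Groucho corepressor that works with engrailed-type repressors, fell by 0.39 from 11.26 ± 0.02 to 10.87 ± 0.13 (adjusted p = 0.0338 with limma). Cnpy1, a regulator of FGF signalling described at the boundary in fish, fell by 0.60 (adjusted p = 0.0406 with limma), and is described with the neighbours of En2. All 3 calls were lost with signals floored at the 20th percentile (limma, Benjamini-Hochberg adjusted p = 0.0989, 0.0760 and 0.350 in that order), although the floor changes no signal of Spry1 or Tle4. Spry1 also missed the threshold without control-labelled arrays 1 and 2 and mutant-labelled arrays 1 and 2 (limma, adjusted p = 0.0672 to 0.120), and Tle4 without control-labelled arrays 1 to 3 and mutant-labelled arrays 2 and 3 (0.0604 to 0.156).

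The ligands and Pax factors at the core of the network did not pass. Fgf8, the organizer's FGF signal and an inducer of Gbx2 in the neural tube, read 6.01, 5.86 and 6.81 in the control-labelled arches and 6.94, 7.44 and 7.17 in the mutant-labelled arches. The groups did not overlap, control-labelled array 3 stood nearest to the mutant-labelled values, and the difference of 0.96 ± 0.23 (SE) missed the threshold (limma, Benjamini-Hochberg adjusted p = 0.0546). Without control-labelled array 3 it was 1.25 (adjusted p = 0.0042 with limma), and it was not past the threshold under any other alternative. Wnt1, the organizer's Wnt ligand, read 4.50 ± 0.06 against 4.43 ± 0.12 (SD, n = 3 each), near the 25th percentile in both groups. Pax5 had a difference of 0.33 (limma, Benjamini-Hochberg adjusted p = 0.177), Pax8 lay under the 25th percentile on all arrays, and no probe set named Pax2 alone. Of the other FGF members, Dusp6 had a difference of 0.33 (limma, adjusted p = 0.0523) and Fgf18 one of -0.83 (0.201).

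**Figure D2:**
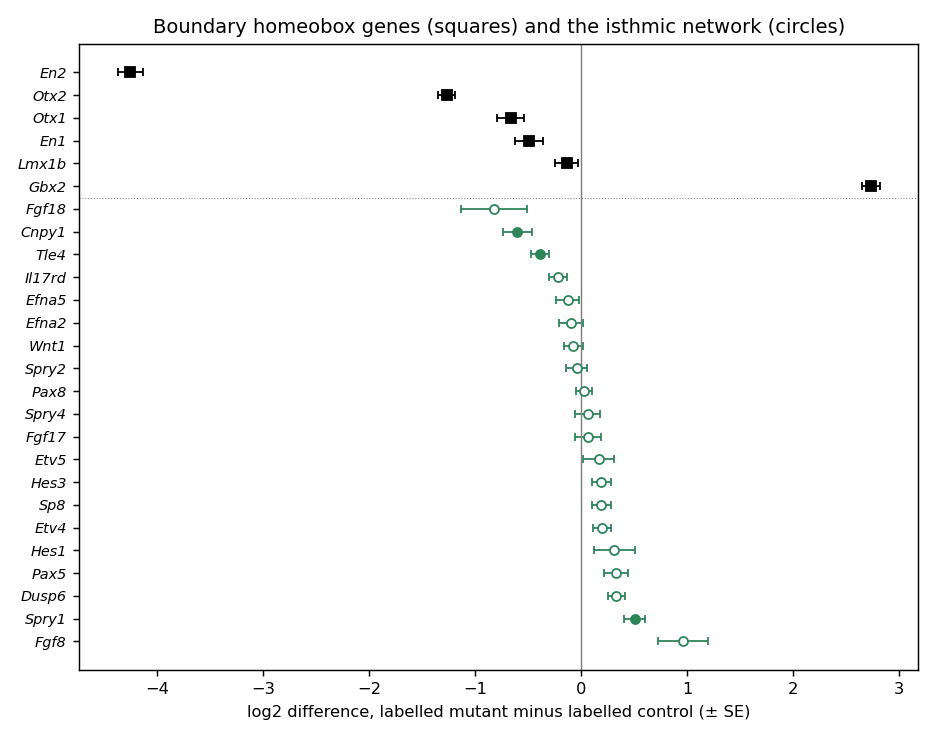
Log2 difference (labelled mutant minus labelled control) with its standard error for the 6 boundary homeobox genes (squares) and 20 genes of the isthmic network (circles; filled where the adjusted p is below 0.05), from 3 arrays per group. En2 at -4.25, Otx2 at -1.27 and Gbx2 at 2.73 lie outside the range of the network genes, which runs from -0.83 to 0.96.

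Related homeobox genes and genes downstream of the boundary in the brain did not pass either. None of the 4 related genes Gbx1, Crx, Lmx1a and Dmbx1 passed with limma, and 0 had an unadjusted p under 0.05. Their differences were 0.09, 0.07, -0.19 and 0.10. Of 9 genes of midbrain dopaminergic neurons 0 passed with limma, against 4 at an unadjusted p under 0.05, 2 in each direction. Over all 18194 genes 18.7% had an unadjusted p under 0.05, 10.2% lower and 8.54% higher. The largest by moderated t were the vesicle transporter gene Slc18a2 (-0.50), Foxa1 (-0.42) and the tyrosine hydroxylase gene Th (0.33), with limma's Benjamini-Hochberg adjusted p of 0.0603, 0.0949 and 0.118. Foxa1 passed without control-labelled array 3 (adjusted p = 0.0305 with limma) and Slc18a2 with trend and robust settings (0.0471). Of 5 measured genes of serotonergic neurons, among them Slc6a4 (-0.30), Gata2 (0.21) and Gata3 (0.36), 0 passed with limma, and 1 in each direction had an unadjusted p under 0.05. The groups did not overlap for 66.7% of the dopaminergic list (2 lower, 4 higher) and 40% of the serotonergic list (1 in each direction). For the related genes this share was 0%, and over all genes it was 24.9%.

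Several Hox genes of hindbrain segments fell, as En2 was lower. Hoxb3 fell by 4.44 from 8.94 ± 0.36 to 4.50 ± 0.32, Hoxa2 by 3.09 from 7.34 ± 0.31 to 4.25 ± 0.01 and Hoxb2 by 1.08 from 7.86 ± 0.04 to 6.77 ± 0.24 (SD, n = 3 each; limma, Benjamini-Hochberg adjusted p = 8.94e-06, 8.94e-06 and 0.0015). Of 7 measured genes in this list 3 fell, 0 rose and 4 did not pass, against 4.30% lower over all genes. All 3 that fell are Hox genes, which assign position along the axis, and so are 2 of the 4 that did not pass. These were Hoxa3 (-0.28), whose groups overlapped, and Hoxb1 (-0.17), which lay under the 25th percentile on all arrays (limma, Benjamini-Hochberg adjusted p = 0.271 and 0.375). Hoxa3 differed by -2.03 on a further probe set, and with probe sets averaged per gene 4 genes of the list fell. Egr2, a marker of hindbrain rhombomeres that is not a Hox gene, had a difference of -0.03, and the ephrin receptor gene Epha4 one of 0.19. A second probe set of Hoxb3 differed by -0.98.

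Markers of first arch mesenchyme and of other cell types were set beside the boundary genes, and by themselves they do not settle the tissue label. Hoxb3, a gene of hindbrain segments, and Hoxd13, one of the distal limb, read 8.94 and 9.09 in the control-labelled arches. All 16 markers of first arch mesenchyme were measured, 0 lay under the 25th percentile on all arrays, and Dlx5, Msx2 and Dlx2 rose by 1.18, 1.10 and 0.97 (limma, Benjamini-Hochberg adjusted p = 1.30e-04, 8.14e-04 and 0.0014). Of these markers 8 rose, 0 fell and 8 did not pass, and 5 rose without mutant-labelled array 2 or mutant-labelled array 3. Over all genes 1.23% rose. The summed log2 level of the list was 151 to 153 in the control-labelled and 158 to 160 in the mutant-labelled arches, moving with Gbx2. The part of a different share of mesenchyme in the Gbx2 values was not tested.

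Several muscle precursor genes moved with En2. Of the 12 genes on the array 7 fell, 0 rose and 5 did not pass, and 9 lower genes had an unadjusted p under 0.05. Over all genes 4.30% fell, and 10.2% were lower at an unadjusted p under 0.05. Des differed by 0.14 in the other direction, and its groups did not overlap (limma, adjusted p = 0.375). Lhx2 fell by 1.20, Tbx1 by 0.72 and Myog by 2.25 (limma, Benjamini-Hochberg adjusted p = 0.0076, 0.0091 and 0.0092), while Myf5, which marks the earliest precursors, had a difference of -0.19 (adjusted p = 0.656 with limma). The summed log2 level of the list was 87.6 to 90.2 in the control-labelled and 77.3 to 83.2 in the mutant-labelled arches, and none of its genes lay under the 25th percentile on all arrays. The count fell to 3 without control-labelled array 2 or mutant-labelled array 3 and to 4 without control-labelled array 3 or mutant-labelled array 2, Myog missing the threshold without control-labelled array 2 (limma, adjusted p = 0.0535). The list was lowest on mutant-labelled array 2, with a mean level of 6.44, and En2 on mutant-labelled array 3. Whether fewer muscle precursors had a part in the En2 values was not tested.

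Neuronal genes were also lower. Of 10 genes of neurons and ganglia 5 fell, 0 rose and 5 did not pass, led by the neurofilament genes Nefl (-2.56) and Nefm (-2.51) and by Isl1 (-0.85; limma, Benjamini-Hochberg adjusted p = 2.43e-04, 4.25e-04 and 0.0049). Second probe sets of Nefl and Isl1 differed by -2.19 and -0.10. The count was 3 without mutant-labelled array 3, and over all genes 4.30% fell. The summed log2 level was 68.6 to 69.9 in the control-labelled and 58.5 to 62.3 in the mutant-labelled arches, and the neurogenic factor gene Neurod1 lay under the 25th percentile on all arrays. Of 14 measured genes of neural tube progenitors 3 fell, 0 rose and 11 did not pass. These were Pax7 (-0.97), Nkx6-1 (-0.54) and Sox2 (-0.67), with limma's Benjamini-Hochberg adjusted p of 0.0085, 0.0248 and 0.0297. Sox2 missed the threshold without control-labelled array 1 and each mutant-labelled array (limma, adjusted p = 0.0628 to 0.109), and Nkx6-1 without any array other than control-labelled array 3 (0.0642 to 0.0965). The count was 1 without control-labelled array 1 or any 1 of the mutant-labelled arrays, and without mutant-labelled array 1 a gene of the list rose (1). The summed level of the progenitor list was 85.8 to 89.5 against 84.7 to 86.2, overlapping between the groups. This sum depends on the probe set taken for Pax6. The one used differed by 0.16, while another went from 7.01 to 4.58, a difference of -2.43. Olig2, a gene of motor neuron progenitors, lay under the 25th percentile on all arrays. Sox1, a pan-neural progenitor gene, had a difference of 0.14 (limma, adjusted p = 0.613). The part of neural tissue in the values of the boundary genes was not tested.

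Epithelial markers did not set the groups apart as a list. Of 11 measured 1 rose, 0 fell and 10 did not pass, against 1.23% higher over all genes. Krt8, a keratin of simple epithelia, rose by 0.52 (limma, Benjamini-Hochberg adjusted p = 0.0461), and missed the threshold without any array other than control-labelled array 3 (0.0579 to 0.181). Krt15 differed by -1.12 and Krt18 by 0.32, and neither passed (limma, adjusted p = 0.0908 and 0.140). Without control-labelled array 3 the list held 3 genes that rose, among them Krt18 (limma, adjusted p = 0.0310), and Krt15 passed without mutant-labelled array 1 (0.0412). The summed log2 level was 93.3 to 101 in the control-labelled and 95.0 to 97.2 in the mutant-labelled arches, with the highest value on control-labelled array 3.

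The counts of these lists also depended on how low signals and probe sets were handled. With signals floored at the 20th percentile 0 muscle precursor, 0 neural tube progenitor and 2 neuronal genes were lower and 4 mesenchyme genes higher, while the 3 Hox genes still fell. With probe sets averaged per gene 4 muscle precursor genes and 4 neural tube progenitor genes fell. Isl1 (limma, Benjamini-Hochberg adjusted p = 0.0608) and Krt8 (0.0534) then missed the threshold.

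**Figure D3:**
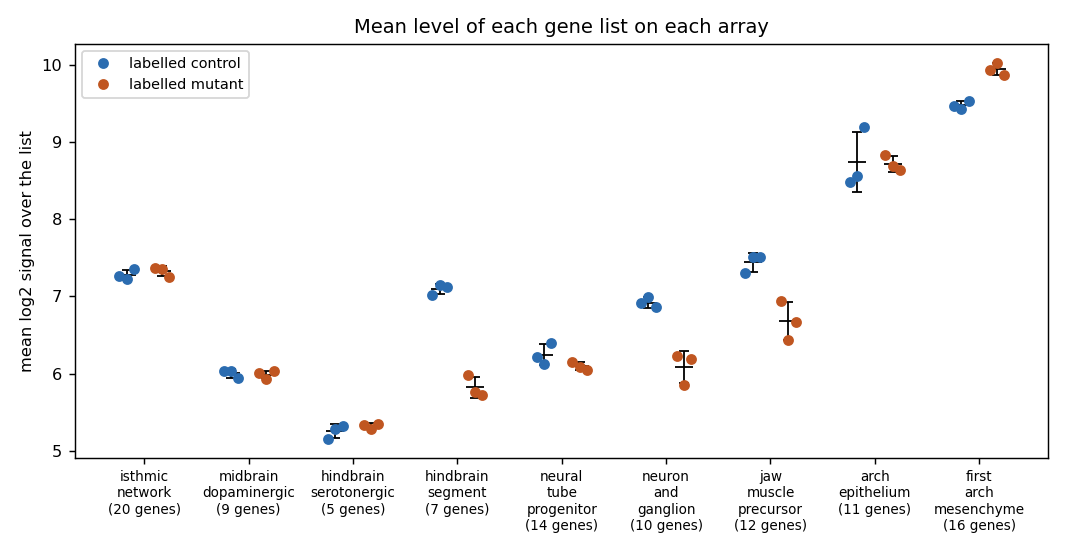
Mean log2 signal of each gene list on each of 6 arrays, with the mean and SD of 3 arrays per group (black bars). The hindbrain segment, neuron and muscle precursor lists lie lower, and the first arch mesenchyme list higher, on all mutant-labelled arrays, while the isthmic network, dopaminergic and epithelium lists overlap between the groups.

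Genes that lie beside the boundary genes on the chromosomes mostly did not pass the test. Among the 3 nearest measured genes on each side of each boundary gene, 36 in all, 1 fell, 0 rose and 35 did not pass with limma, while 2 lower and 3 higher genes had an unadjusted p under 0.05. Their median difference was -0.01, with 4.30% of all genes lower. The groups did not overlap for 10 of the 36, near the share of 24.9% over all genes. Among these 10, of which only Cnpy1 passed, Rbm33 beside En2 (0.26) alone differed in the direction opposite to its boundary gene. With a count near that share, whether neighbours moved with their boundary genes was not tested. Garnl3 (-0.195) was the one beside Lmx1b, whose own groups overlapped. The gene that fell was Cnpy1, which lies directly beside En2. It read 4.08, 4.46 and 4.49 in the control-labelled arches and 3.96, 3.58 and 3.67 in the mutant-labelled arches, at or under the 25th percentile on 4 of 6 arrays, with a difference of -0.60 ± 0.14 (SE; limma, Benjamini-Hochberg adjusted p = 0.0406). Its 2 other probe sets differed by -1.47 and -0.29, and the groups did not overlap for any of its 3 probe sets. The call was lost without control-labelled arrays 2 and 3 and mutant-labelled arrays 2 and 3 (limma, adjusted p = 0.101 to 0.162) and with floored signals (0.350), and without control-labelled array 1 a further neighbour passed, making 2.

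Insig1, on the other side of En2, differed by -0.04, and Shh, the 3rd measured gene on the side of Cnpy1, by -0.07, at signals well above the median (limma, Benjamini-Hochberg adjusted p = 0.923 and 0.824). Beside Gbx2, Asb18 differed by 0.08 and Agap1, the 2nd gene on the other side, by 0.25 (limma, adjusted p = 0.618 and 0.153). Sh3bp4, the 3rd gene on the side of Agap1, differed by 0.24 (limma, adjusted p = 0.180). Otx2os1, the RNA transcribed opposite to Otx2, read 4.06 against 4.16, under the 25th percentile on all arrays (limma, adjusted p = 0.645). The neighbours of Otx1, among them Wdpcp (-0.24) and Ehbp1 (-0.19), did not pass (limma, adjusted p = 0.290 and 0.508). Peli2, the 3rd gene on one side of Otx2, had the lowest difference after Cnpy1, -0.34 (limma, adjusted p = 0.0709).

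**Figure D4:**
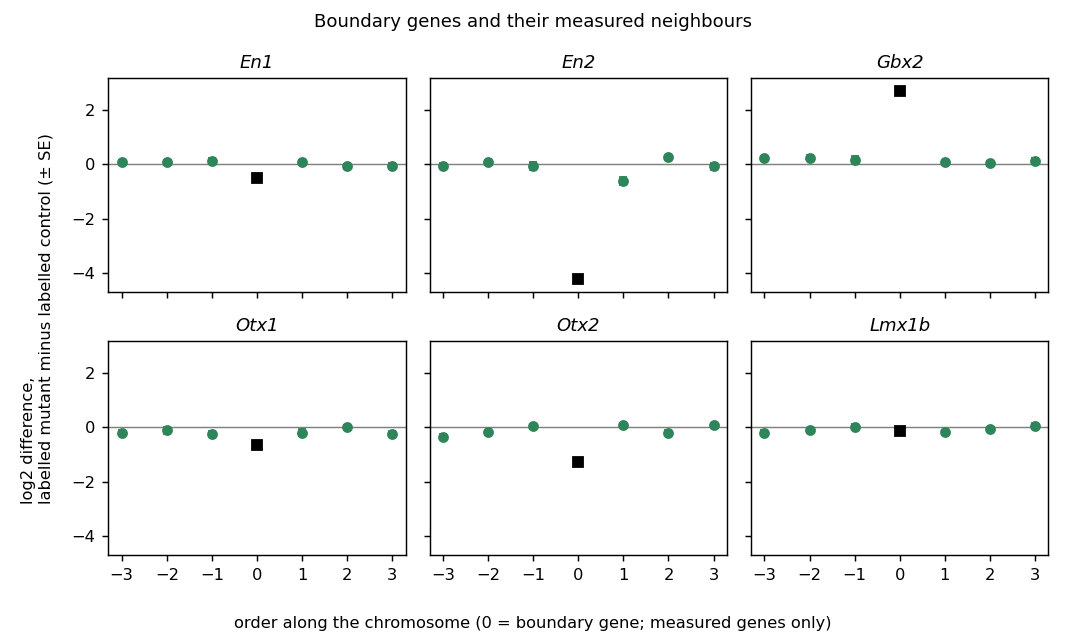
Log2 difference (labelled mutant minus labelled control) with its standard error for each boundary gene (square, position 0) and the 3 nearest measured genes on each side of it (circles), 3 arrays per group. The neighbours lie between -0.60 and 0.26, with Cnpy1 beside En2 the lowest.

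The genes with the profile nearest to each boundary gene were found from the root mean square difference between the profiles over the 6 arrays, each centred on its own mean. For En2 they were Lhx9, a LIM homeobox gene of limb, gonad and brain, Hoxd13, a Hox gene of the distal limb, and Hoxb3, at 0.22, 0.28 and 0.33 log2 units. Their differences were -4.19, -4.42 and -4.44, all from signals above the array's median to signals at its low end. For Gbx2 they were Dlx1as, a noncoding RNA of the Dlx1 locus, the T-box gene Tbx22 and Zmat4, at 0.15, 0.35 and 0.57 log2 units, with differences of 2.86, 2.14 and 1.66.

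For Otx2 the nearest profiles were those of the adaptor gene Skap2, of Shtn1, and of Bmi1, a subunit of Polycomb repressive complex 1, at 0.06, 0.07 and 0.09 log2 units. Bmi1 read 12.27, 12.26 and 12.26 in the control-labelled arches and 11.00, 10.78 and 11.06 in the mutant-labelled arches, a difference of -1.32. For Otx1 they were Uchl1, a ubiquitin hydrolase gene of neurons, the IGF binding protein gene Igfbp5 and Cap2, with differences of -0.61, -0.64 and -0.66. The profiles nearest to En1 (Cmpk2, Rin2 and Podxl2) and to Lmx1b (Epm2aip1, Sirt4 and Fbln1) differed by -0.48 to -0.41 and by -0.15 to -0.11. With groups that differ, such likeness over 6 arrays mostly restates the difference between the groups.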

How the data were processed

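Total RNA of 6 arch samples was biotin-labelled and hybridised to 1-colour arrays, per the labels' protocols. The authors deposited 1 log2 value per probe set and array. The log2 scale was inferred from the values (2.63 to 14.68 on each array) because the labels leave it unstated, and equal quantiles on all arrays show that the authors had brought them to 1 distribution. How background was corrected, how probes were summarised and with which software is not given in the sources used here. Any difference in total signal was thereby removed. Precision is limited by having 3 arrays per group.

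Of 45101 probe sets, 34958 had 1 gene symbol in the platform annotation, 932 several and 9211 none; only the first entered the tests, with the brightest probe set per gene over the 6 arrays (18194 genes). Differences were fitted with limma 3.58.1 (R 4.3.3) with no covariate, two-sided, adjusted after Benjamini-Hochberg over all genes, and a threshold of 0.05. The procedure was run on simulated data with independent noise for each gene. These held no array effects, no variation shared between genes and no sex difference, so that they do not show how it behaves with those. The labels call the arrays biological replicates, with 1 arch per embryo, and p-values measure only the spread between these arrays. The 6 genes and all lists were chosen with earlier results of these data known, so that the list counts and p-values are no independent test. Genes named are the 6, Ezh2, Wnt1, Fgf8, Pax2, Pax5, Pax8, the 3 of each list with the largest absolute moderated t, the 3 nearest profiles of each of the 6, neighbours past the threshold and the sex-linked genes; others were chosen after their values were seen. Neighbours were ordered by the gene table of GRCm38.p6, which matched 18033 genes. As alternatives, the fit was repeated with a replicate block, further quantile normalization, median centring, the mean of probe sets, floored signals, a filter on dim genes, trend and robust settings, and leaving out each array.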

Additional observations from a re-analysis of the deposited data

How the results depend on the processing

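The differences of En2 (-4.33 to -4.11), Gbx2 (2.67 to 2.80), Otx2 (-1.33 to -1.23), Otx1 (-0.82 to -0.57) and Lmx1b (-0.22 to -0.04) kept their sign under 13 alternatives each, and En1 reversed to 0.0006667 with signals floored at the 20th percentile, under which all 6 of its values equal the floor. En1 has no value in the fit without dim genes. The replicate numbers were taken as names of samples and not as pairs. Same-numbered deviations had correlations of -0.211, -0.122 and -0.0661, and with 3 arrays per group these cannot decide whether samples were paired. With the replicate block the counts over all genes were 545 lower and 112 higher, those of the isthmic network were 0 lower and 0 higher, and no neighbour was lower (0). With floored signals the counts were 230 and 99 over all genes, 0 and 0 in the isthmic network and 0 lower among neighbours. The floor changes no signal above it, and why further calls were lost was not tested. Without dim genes the isthmic network had 1 lower and 2 higher, and neighbours 0 lower. The network had 2 higher with the mean of probe sets and 2 higher with trend and robust settings. Leaving out each array in turn gave 372 to 777 lower and 63 to 244 higher over all genes, 0 to 2 lower and 0 to 3 higher in the network, and 0 to 2 lower among neighbours. Ezh2 and Pax8, neither past the threshold, changed sign without control-labelled array 2, and Ezh2 also without control-labelled array 3. Leaving out each array gave -0.0233 to 0.1167 for Ezh2 and -0.0247 to 0.0543 for Pax8. Quantile normalization and median centring moved no count of these lists.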

Other observations

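Probe sets of the same gene disagreed in several developmental regulators outside the boundary genes, and the examples given were chosen after their values were seen. One probe set of Pax6, a homeobox gene of eye and forebrain, read 7.01 ± 0.17 in the control-labelled and 4.58 ± 0.26 in the mutant-labelled arches (SD, n = 3 each), a difference of -2.43, while its brightest over the 6 arrays differed by 0.16. A second probe set of Isl1 differed by -0.10, where the brightest differed by -0.85. One probe set of Hoxa3 went from 6.55 ± 0.53 to 4.52 ± 0.43 (SD, n = 3 each), a difference of -2.03, and its others differed by -0.37, -0.28 and 0.07.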
